A study of Mus musculus with 144 samples.

Results

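The 10 genes described here mark cell types of the liver that the series did not isolate. Reln, Lrat, Dcn, Hgf, Des and Pdgfrb mark hepatic stellate cells, and Sox9, Epcam, Krt19 and Spp1 mark cholangiocytes. They were taken by symbol from 4 deposited expression tables, out of 24421 gene symbols. For each symbol the transcript with the largest mean over the 4 tables together was kept. All 10 were found in every table.

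RNA was sequenced from male C57BL/6J mice on normal chow. The knockout group is labelled a double knockout of REV-ERB α and β, made in hepatocytes of the adult animal, and the control group is labelled wild type. The tables name the knockout columns CRE and the control columns GFP, read here as a recombinase and its control vector, so what was delivered differed together with genotype and the 2 cannot be told apart. Whole liver was sampled at 8 zeitgeber times (ZT, counted in hours from lights on), ZT 1, 4, 7, 10, 13, 16, 19 and 22. Mice ate either ad libitum or on a reverse-phase schedule, with 3 libraries per genotype and time and 48 per schedule. Liver endothelial cells and Kupffer cells were isolated at ZT 4, 10, 16 and 22, with 24 libraries each. The labels state neither a feeding schedule for the isolated cells nor a separate animal for each library, so p-values measure only the spread between libraries.

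Stellate cells lie between hepatocytes and the sinusoidal endothelium, store vitamin A as retinyl esters, and can turn into collagen-producing myofibroblasts when the liver is injured. Cholangiocytes line the bile ducts, and Sox9, a transcription factor of the biliary lineage, is also known to be switched on in hepatocytes that take on biliary features. REV-ERB α and β are nuclear receptors of the circadian clock that repress transcription. All values come from bulk RNA, so fewer cells of a type and less RNA per cell cannot be told apart.

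Transcript positions are those of the tables, on mm9. The stellate members were Reln (NM_011261, chr5:21390272-21850523, minus strand), Lrat (NM_023624, chr3:82696504-82707896, minus), Dcn (NM_001190451, chr10:96942134-96980797, plus), Hgf (NM_001289459, chr5:16059313-16125257, plus), Des (NM_010043, chr1:75356867-75365154, plus) and Pdgfrb (NM_008809, chr18:61204804-61244721, plus). The cholangiocyte members were Sox9 (NM_011448, chr11:112643524-112649071, plus), Epcam (NM_008532, chr17:88035319-88050467, plus), Krt19 (NM_008471, chr11:100002126-100007240, minus) and Spp1 (NM_001204201, chr5:104864130-104870072, plus).

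Ad libitum liver libraries held 4.57e6 to 1.04e7 counts, and reverse-phase ones 1.31e7 to 2.62e7. Levels in liver are given as normalised CPM (counts scaled to library size), and in isolated cells as the deposited signal, whose depth is unknown. Each table was normalised on its own, so levels are not set against each other across tables. Nr1d1 and Nr1d2 transcript totals do not check the deletion, since which exons were deleted is unknown here: Nr1d1 ran from 19.1 to 175 normalised CPM in ad libitum knockout livers, against 1.37 to 169 in control livers. In endothelial libraries the sinusoidal markers Clec4g, Stab2 and Kdr averaged 7000, 2730 and 2550 signal units per kb, and in Kupffer libraries the macrophage markers Clec4f and Cd5l averaged 11400 and 9440 per kb. Markers of other cells were present too. In endothelial libraries the albumin gene Alb averaged 10600 per kb (0.135% to 2.4% of the signal), Cd5l 1180 and Clec4f 1050. In Kupffer libraries Alb averaged 9040 per kb. The listed endothelial markers other than Cdh5 averaged from 14.2 (Tek) to 222 (Pecam1) per kb there. Cdh5 stood apart from them at 1540, and which cells its signal came from was not tested. The part of other cells in the member values was not tested. A total of 8 libraries stood apart in transcript-length slope, spread or ribosomal RNA: 2 controls ad libitum, 2 endothelial knockouts at ZT 22, and 2 of each genotype in Kupffer cells at ZT 4.

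REV-ERBs bind the nuclear receptor half-site AGGTCA, and the clock activators that they oppose bind the E-box CACGTG. Both were searched on both strands of the RefSeq promoter windows (GRCm38.p6), which run from 250 bases before to 50 after each start. Windows were matched for 6 members, Reln, Lrat, Hgf, Des, Epcam and Spp1. None of these windows held AGGTCA, which occurs in 16.3% of all 32851 windows. CACGTG, present in 7.15% of all windows, occurred in the windows of Reln and Epcam, at -71 and 30 from the start. The other members, Sox9 among them, were not searched. The windows of Reln and Epcam are shown because they hold the only matches to either motif among the 6 members searched, with CACGTG in capitals. They lie at chr5:22344656-22344955 on the minus strand and at chr17:87635729-87636028 on the plus strand, and are written 5′ to 3′.
Reln: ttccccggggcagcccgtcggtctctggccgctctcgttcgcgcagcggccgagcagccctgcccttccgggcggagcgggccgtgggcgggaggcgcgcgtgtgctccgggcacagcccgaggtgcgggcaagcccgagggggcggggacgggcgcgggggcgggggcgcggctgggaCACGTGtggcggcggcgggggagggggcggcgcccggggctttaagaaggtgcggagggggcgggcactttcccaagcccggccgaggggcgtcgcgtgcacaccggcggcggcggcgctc
Epcam: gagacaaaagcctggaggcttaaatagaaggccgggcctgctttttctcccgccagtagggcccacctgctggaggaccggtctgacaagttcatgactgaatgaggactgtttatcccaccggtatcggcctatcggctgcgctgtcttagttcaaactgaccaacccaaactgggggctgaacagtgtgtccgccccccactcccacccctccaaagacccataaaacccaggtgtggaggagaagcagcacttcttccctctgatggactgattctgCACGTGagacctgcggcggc

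Sox9 had the largest genotype difference of the 10 genes in both liver tables. Ad libitum it ran from 8.72 to 25.4 normalised CPM in knockout livers (median 13.1), against 2.47 to 12.1 in control livers (median 5.34, 24 libraries each). The genotypes overlapped over the whole day but were separate at 7 of the 8 times, all except ZT 1. Its fitted daily mean was 2.28-fold higher in knockout livers (log2 fold change 1.19 ± 0.10 SE, edgeR adjusted p = 4.93e-14). Under reverse-phase feeding it ran from 13.8 to 28.1 normalised CPM in knockout livers (median 18), against 3.59 to 14.5 in control livers (median 5.88). Here every knockout library lay above every control library of the same time, at 8 of 8 times, although the single highest control exceeded the lowest knockout values of other times. The daily mean was 3.01-fold higher (log2 1.59 ± 0.11 SE, edgeR adjusted p = 1.17e-16).

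**Figure D1:**
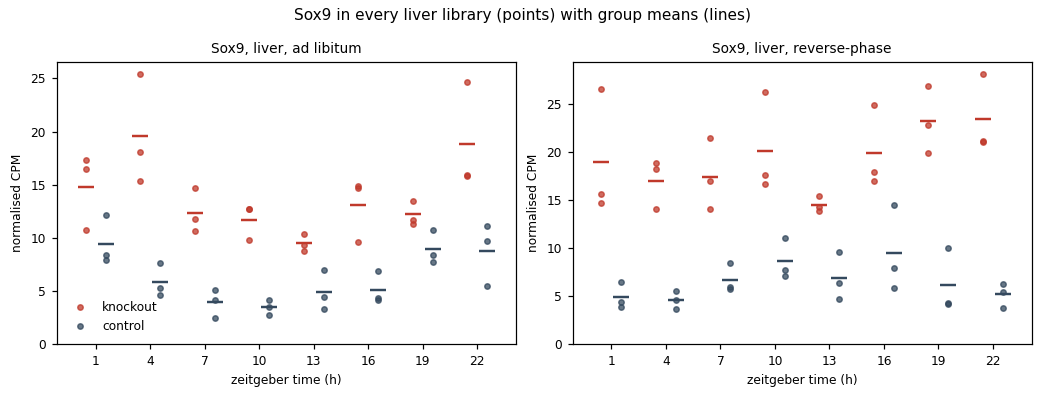
Sox9 in whole liver by zeitgeber time (x axis, hours) in normalised CPM (y axis), ad libitum on the left and reverse-phase on the right. Points are libraries, with knockout in red to the left of control in dark blue, and lines are group means of 3. The means are 19.6 in knockout livers and 5.84 in control livers at ZT 4 ad libitum, and 23.4 in knockout livers and 5.15 in control livers at ZT 22 under reverse-phase feeding, and the highest control means are 9.45 at ZT 1 ad libitum and 9.43 at ZT 16 under reverse-phase feeding.

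At ZT 4 ad libitum the 3 knockout livers had 25.4, 15.3 and 18.1 normalised CPM of Sox9 and the 3 control livers 7.67, 4.62 and 5.24. At ZT 1, the time with overlap, they had 17.3, 10.7 and 16.5 in knockout livers and 7.94, 12.1 and 8.33 in control livers. At ZT 22 under reverse-phase feeding they had 28.1, 21.1 and 21 in knockout livers and 6.27, 5.39 and 3.79 in control livers. The smallest separation by means was at ZT 19 ad libitum, with 12.2 ± 1.19 normalised CPM in knockout livers and 8.92 ± 1.55 in control livers (SD, n = 3 each).

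Over all members, 7 of 10 were called higher and 0 lower in ad libitum knockout livers at an adjusted p under 0.05, where 13.9% of the 12534 genes tested were called higher and 13.6% lower. These were the 6 stellate genes and Sox9. The median log2 difference of the members was 0.44, and that of all genes -0.004. Under reverse-phase feeding 5 of 10 were called higher and 0 lower, where 13% of 13810 genes were called higher and 14.4% lower. These were Reln, Lrat, Dcn, Pdgfrb and Sox9, with a member median of 0.31 against -0.006 for all genes. Each of these 12 calls held under every alternative tried, DESeq2 among them.

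**Figure D2:**
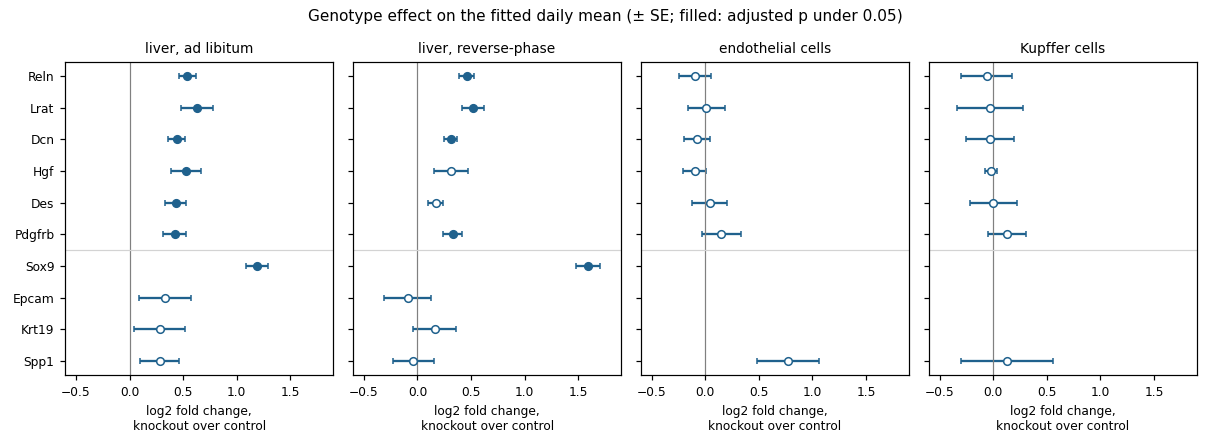
Log2 fold change of the fitted daily mean, knockout over control (x axis), of each member (y axis) in the 4 tables, with SE bars and filled points where the adjusted p is under 0.05. Sox9 stands farthest to the right in both liver tables, at 1.19 and 1.59, and no point is filled in the isolated cells, where Sox9, Epcam and Krt19 were too low to be tested.

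Reln encodes reelin, a large secreted glycoprotein. It had 32.6 to 79.6 normalised CPM in ad libitum knockout livers (median 56.1), against 19.9 to 55.8 in control livers (median 42.1). The groups overlapped over the day and were separate at 6 of 8 times, and the knockout mean was higher at all 8. Its daily mean rose by 0.54 ± 0.08 on the log2 scale (edgeR adjusted p = 1.73e-06). Under reverse-phase feeding it had 35.4 to 67.3 normalised CPM in knockout livers (median 48.7), against 23 to 45.1 in control livers (median 37.3). Of the 24 knockout libraries 16 lay above every control library, and the log2 difference was 0.46 ± 0.07 (edgeR adjusted p = 4.54e-07).

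Lrat encodes lecithin retinol acyltransferase, which esterifies retinol for storage. It had 10.3 to 37.3 normalised CPM in ad libitum knockout livers (median 20.6), against 5.82 to 29.8 in control livers (median 13.4). The ranges overlapped, and the genotypes were separate at 2 of 8 times, ZT 1 among them, with 35.8, 26 and 35.3 in knockout livers and 14.9, 19.9 and 18.7 in control livers. The log2 difference of the daily mean was 0.63 ± 0.15 (edgeR adjusted p = 0.00084). On the reverse-phase schedule it had 8.77 to 29.5 normalised CPM in knockout livers (median 17), against 5.91 to 24.2 in control livers (median 11.4), a log2 difference of 0.52 ± 0.10 (edgeR adjusted p = 5.57e-05). At ZT 4 it had 20.7, 27.3 and 20.9 in knockout livers, clear of the 11.8, 11.2 and 12.4 in control livers.

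Dcn encodes decorin, a proteoglycan that binds collagen fibrils, and was the member with the highest level per kb in liver. It had 86.1 to 189 normalised CPM in ad libitum knockout livers (median 143), against 60.7 to 165 in control livers (median 104). The groups were separate at 4 of 8 times. At ZT 13 the knockout livers had 121, 138 and 122 and the control livers 60.7, 72.7 and 68.9. Its daily mean rose by 0.44 ± 0.08 on the log2 scale (edgeR adjusted p = 3.4e-05). Under reverse-phase feeding it had 129 to 181 normalised CPM in knockout livers (median 157), against 84.7 to 190 in control livers (median 126). The highest library there was a control, 13 of 24 controls lay below every knockout library, and the log2 difference was 0.31 ± 0.06 (edgeR adjusted p = 0.000123).

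Hgf encodes hepatocyte growth factor, the ligand of the receptor Met on hepatocytes. It had 2.24 to 10.3 normalised CPM in ad libitum knockout livers (median 4.88), against 0.964 to 8.79 in control livers (median 2.87). The groups overlapped at 6 of the 8 times through ranges that were wide at this low level, and the log2 difference was 0.53 ± 0.14 (edgeR adjusted p = 0.00301). In the reverse-phase table it had 1.08 to 5.24 normalised CPM in knockout livers (median 2.9), against 0.688 to 4.92 in control livers (median 2.16), and the difference of 0.31 ± 0.16 was not called (edgeR adjusted p = 0.16). Without the third control library at ZT 13 it was called, at 0.45 with an adjusted p of 0.0254. At ZT 1 of that schedule the order turned, with 3.13, 1.75 and 3.14 in knockout livers, all below the 3.68, 4.65 and 4.35 in control livers.

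Des encodes desmin, the muscle-type intermediate filament that stellate cells share with muscle. It had 2.52 to 5.02 normalised CPM in ad libitum knockout livers (median 3.67), against 0.686 to 3.72 in control livers (median 2.95). In 11 of 24 knockout libraries it exceeded every control library, and its daily mean rose by 0.43 ± 0.10 on the log2 scale (edgeR adjusted p = 0.000351). Under reverse-phase feeding it had 3.09 to 5.61 normalised CPM in knockout livers (median 3.99), against 2.62 to 5.63 in control livers (median 3.3). The difference of 0.17 ± 0.07 was not called (edgeR adjusted p = 0.0772), and passed the threshold without 1 of 3 libraries: the first knockout library at ZT 19 (adjusted p = 0.0478), the third control library at ZT 16 (0.0428) or the first at ZT 7 (0.0417).

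Pdgfrb encodes the β receptor of platelet-derived growth factor, a mitogen of stellate cells. It had 7.1 to 15.7 normalised CPM in ad libitum knockout livers (median 10.7), against 2.91 to 14.2 in control livers (median 7.96), a log2 difference of 0.42 ± 0.11 (edgeR adjusted p = 0.002). On the reverse-phase schedule it had 4.07 to 11.1 normalised CPM in knockout livers (median 6.7), against 3.61 to 8.04 in control livers (median 5.67), a difference of 0.33 ± 0.09 (edgeR adjusted p = 0.00324). The groups overlapped over the day in both tables and were separate at 3 of 8 times in each.

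**Figure D3:**
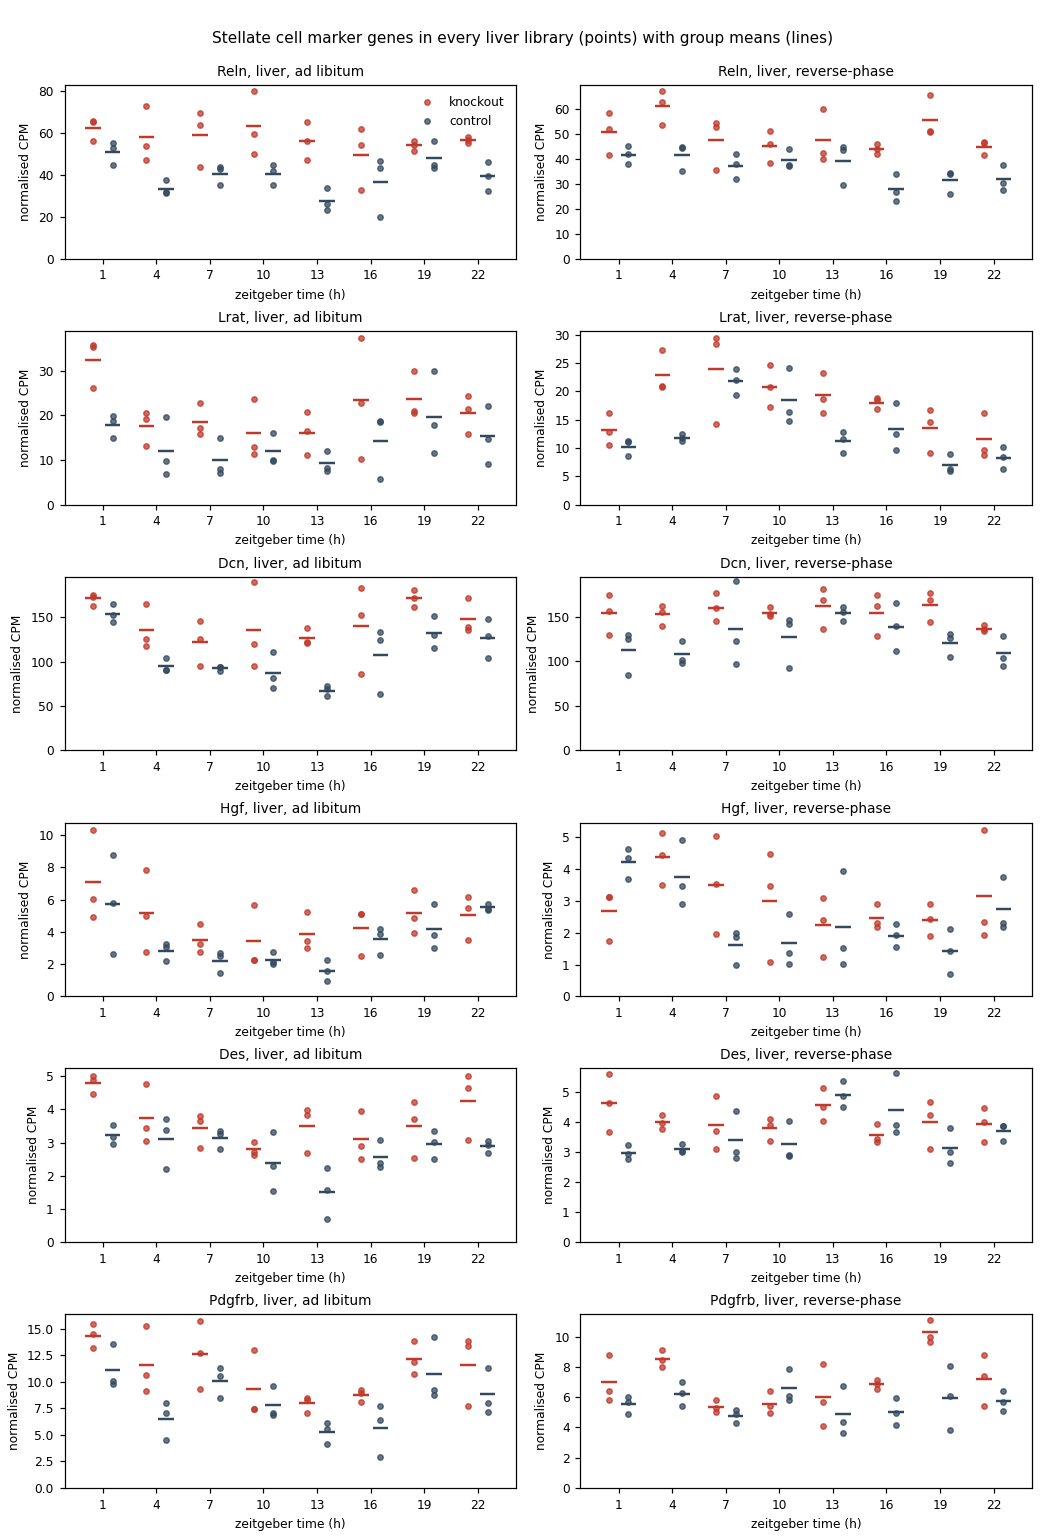
The 6 stellate marker genes in whole liver by zeitgeber time (x axis, hours) in normalised CPM (y axis), ad libitum on the left and reverse-phase on the right. Points are libraries, with knockout in red to the left of control in dark blue, and lines are group means of 3. Knockout means lie above control means at 8 of 8 times for Reln, Lrat and Dcn in both tables.

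The other cholangiocyte members were not called in either liver table. Epcam encodes an epithelial adhesion molecule and had 0.574 to 4.98 normalised CPM in ad libitum knockout livers (median 1), against 0 to 3.07 in control livers (median 1.04). Its log2 difference was 0.33 ± 0.24 in the ad libitum table and -0.09 ± 0.22 in the reverse-phase table (edgeR adjusted p = 0.339 and 0.815). Krt19 encodes a keratin of simple epithelia and had 0 to 3.2 normalised CPM in ad libitum knockout livers (median 1.03), against 0 to 2.51 in control livers (median 0.89). Its differences were 0.28 ± 0.24 and 0.16 ± 0.20 (edgeR adjusted p = 0.421 and 0.616). Both rested on few reads ad libitum, at most 42 counts of Epcam and 21.5 of Krt19 in a library, and both genotypes overlapped through most of the day.

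Spp1 encodes osteopontin, a secreted glycoprotein, and had at least 113.5 counts in every liver library. It had 25.8 to 190 normalised CPM in ad libitum knockout livers (median 38.2), against 23.9 to 86.8 in control livers (median 37.7). Single libraries stood far out: at ZT 10 the knockout livers had 40, 190 and 34.3, and at ZT 22 they had 117, 30.6 and 31.6. The log2 difference was 0.28 ± 0.18 ad libitum (edgeR adjusted p = 0.261) and -0.04 ± 0.19 under reverse-phase feeding (edgeR adjusted p = 0.9). In the reverse-phase table it had 34.5, 44.8 and 66.1 normalised CPM in knockout livers at ZT 16, against 37.3, 127 and 28.3 in control livers. At ZT 19 it had 34.6, 34.9 and 28.9 in knockout livers, against 40.8, 108 and 32.6 in control livers, so the highest libraries there were controls.

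Other marker lists were read in the same fits, where 13.9% of all genes were called higher and 13.6% lower ad libitum, and 13% and 14.4% under reverse-phase feeding. Of 16 further stellate markers tested, 10 were higher and 0 lower in knockout livers in each table, with list medians of 0.32 and 0.29. Ad libitum the largest were Adamtsl2 at 0.48 ± 0.11, Pdgfra at 0.45 ± 0.13 and Rgs5 at 0.41 ± 0.08 on the log2 scale (edgeR adjusted p = 0.00109, 0.00477 and 4.94e-05). Under reverse-phase feeding they were Rgs5 at 0.40 ± 0.10, the nerve growth factor receptor gene Ngfr at 0.39 ± 0.11 and Adamtsl2 at 0.32 ± 0.13 (edgeR adjusted p = 0.00103, 0.00467 and 0.0475).

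Of the myofibroblast and fibrillar matrix genes, 6 of 8 tested were higher and 0 lower ad libitum (median 0.63), and 6 of 9 were higher and 0 lower under reverse-phase feeding (median 0.44). The fibrillar collagen gene Col3a1 had 45.6 ± 28 normalised CPM in ad libitum knockout livers and 26.9 ± 10 in control livers (SD, n = 24 each), a log2 difference of 0.71 ± 0.17 (edgeR adjusted p = 0.00135). Loxl2, a collagen cross-linking enzyme, differed by 0.69 ± 0.15 and Acta2, smooth muscle actin, by 0.66 ± 0.23 (edgeR adjusted p = 0.000417 and 0.0292). Under reverse-phase feeding Acta2 differed by 0.68 ± 0.21, Col1a1 by 0.57 ± 0.16 and Col3a1 by 0.56 ± 0.14 (edgeR adjusted p = 0.00973, 0.00504 and 0.00147). Acta2 stayed near 1 normalised CPM, at 1.31 ± 0.608 in knockout livers and 0.907 ± 0.93 in control livers ad libitum.

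Further cholangiocyte markers were mostly not called. Ad libitum 2 of 10 tested were higher, Pkhd1 at 0.47 ± 0.11 and Atp1b1 at 0.21 ± 0.08 (edgeR adjusted p = 0.000713 and 0.0359), and 0 were lower, with a median of 0.12. Without the libraries that stand apart 1 was called higher. Under reverse-phase feeding Pkhd1 was higher at 0.47 ± 0.12 and the keratin gene Krt23 was lower at -0.79 ± 0.23 (edgeR adjusted p = 0.00166 and 0.00674).

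Among ligands, receptors and filament partners of the members, 3 of 14 were higher and 3 lower ad libitum, where 13.9% and 13.6% of all genes were. Under reverse-phase feeding 3 of 15 were higher and 4 lower, where 13% and 14.4% of all genes were. The 3 higher there became 1 with time as a factor or with no filter on low counts, and 2 with the replicate block. The receptor gene Vldlr, which binds reelin, differed by 0.58 ± 0.20 and 0.50 ± 0.19 in the 2 tables, and Pdgfb, a ligand of the Pdgfrb product, by 0.49 ± 0.16 ad libitum (edgeR adjusted p = 0.0297, 0.0485 and 0.0198). Pdgfc, another platelet-derived growth factor gene, differed by 0.48 ± 0.07 ad libitum (edgeR adjusted p = 4.04e-07). Under reverse-phase feeding Rarb, a retinoic acid receptor gene, was lower at -0.46 ± 0.09 and Pdgfb higher at 0.40 ± 0.15 (edgeR adjusted p = 6.79e-05 and 0.0458). The Notch and YAP pathways act upstream of Sox9 in bile duct development. Of the genes listed for these pathways, targets such as Hes1 among them, 1 of 11 was higher and 2 lower ad libitum: Ctgf at 0.59 ± 0.15, Amotl2 at -0.47 ± 0.06 and Tead1 at -0.29 ± 0.07 (edgeR adjusted p = 0.00265, 3.32e-08 and 0.00168). Under reverse-phase feeding 1 of 13 was higher and 1 lower, the Notch target Hes1 at 0.67 ± 0.14 and Amotl2 at -0.40 ± 0.06 (edgeR adjusted p = 0.000232 and 1.89e-06). The Notch and YAP counts were near the shares of all genes in both tables.

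Markers of other liver cells were read beside the stellate genes, and the lists differed. Of 11 endothelial markers, 10 were higher and 0 lower in ad libitum knockout livers (median 0.29) and 5 higher and 0 lower under reverse-phase feeding (median 0.19), led by Stab2 at 0.44 ± 0.08 and 0.46 ± 0.07 (edgeR adjusted p = 3.69e-05 and 1.6e-06). The 10 called ad libitum became 6 without the libraries that stand apart and 7 with no filter. Their summed level ad libitum ran from 169 to 320 normalised CPM in knockout livers (median 258), against 144 to 322 in control livers (median 207). Of 10 Kupffer markers tested 0 were called in either table by edgeR, and 0 had an unadjusted p under 0.05. Their sum had a median of 293 normalised CPM in knockout livers and 295 in control livers ad libitum. Of 12 hepatocyte markers 5 were higher and 2 lower ad libitum, and 3 higher and 2 lower under reverse-phase feeding. Ad libitum the largest were Ass1 at 0.53 ± 0.07, Fabp1 at -0.50 ± 0.09 and Cps1 at 0.43 ± 0.06 (edgeR adjusted p = 1.13e-07, 4.91e-05 and 1.67e-07). The summed level of the hepatocyte markers ad libitum ran from 102000 to 158000 normalised CPM in knockout livers (median 129000), against 119000 to 168000 in control livers (median 146000). Most of this sum was Alb, with means of 77300 in knockout livers and 99100 in control livers. Alb was lower at -0.36 ± 0.05 (edgeR adjusted p = 7.2e-07), so the sum does not stand for the whole list. Of portal fibroblast, mesothelial and smooth muscle markers 3 of 7 were higher and 0 lower in the ad libitum table (median 0.21), and 3 of 10 higher and 0 lower in the reverse-phase table (median 0.40). With a filter at a mean of 1 CPM, 1 of 5 tested was called ad libitum. The part of these markers in the members' differences was not tested. In isolated cells 0 of 92 tested genes of the 9 lists were called by limma in endothelial cells (9 at an unadjusted p under 0.05), and 0 of 85 in Kupffer cells (4).

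Whether the genotype difference depended on feeding was tested in 1 fit over both liver tables. For 0 of 10 members was the difference called, where 0.214% of 13535 genes were (edgeR). Of these genes 930 had an unadjusted p under 0.05, among them 2 members. These were Sox9, whose log2 difference was larger by 0.41 ± 0.15 under reverse-phase than ad libitum feeding (adjusted p = 0.411), and Des, at -0.26 ± 0.12 (adjusted p = 0.671). The calls of Hgf and Des ad libitum and their absence under reverse-phase feeding are therefore not shown to differ.

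Daily rhythms were tested as a 24-h cosine in each genotype. Ad libitum 4 of 10 members were called rhythmic in knockout livers, where 44.7% of genes were, and 5 of 10 in control livers, where 48.4% were, so the members were near the background in both. The 4 in knockout livers, Hgf, Des, Pdgfrb and Sox9, were also called in control livers, together with Dcn. Sox9 had a fitted peak-to-trough range of 1.70-fold in knockout livers, with its peak at ZT 0.849 ± 0.91 (edgeR adjusted p = 0.00221), and of 2.66-fold in control livers, with its peak at ZT 22 ± 0.59 (edgeR adjusted p = 3.33e-06). Hgf had a range of 1.77-fold in knockout livers and 3.19-fold in control livers (edgeR adjusted p = 0.0233 and 4.54e-05). Dcn had a range of 1.32-fold in knockout livers, which was not called, and 1.84-fold in control livers (edgeR adjusted p = 0.113 and 0.000103). A difference of rhythm between genotypes was called for 0 of 10 members by edgeR, against 3.37% of all genes, with 1 at an unadjusted p under 0.05, Sox9 (adjusted p = 0.0944).

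All called ad libitum rhythms peaked between late night and early day. In knockout livers Hgf peaked at ZT 23.4 ± 1.2, Des at ZT 0.221 ± 1.2 and Pdgfrb at ZT 1.39 ± 1.1. In control livers the peak of Hgf was at ZT 22.4 ± 0.68, that of Dcn at ZT 22.7 ± 0.71, that of Pdgfrb at ZT 0.728 ± 1.3 and that of Des at ZT 1.43 ± 1.2. Control Dcn shows the pattern in its group means, with 154 ± 10.1 normalised CPM at ZT 1 and 67.4 ± 6.1 at ZT 13 (SD, n = 3 each). The control rhythm of Pdgfrb (edgeR adjusted p = 0.0405) was lost without the libraries that stand apart (0.0565), and that of Lrat (0.0513) was gained without them (0.0376). With the longest transcript per gene or with no filter on low counts the call of Pdgfrb was lost too (edgeR adjusted p = 0.0528 and 0.0671). Leaving out a single control library at ZT 1, 10, 13, 16 or 22 also lost the call of Pdgfrb in 11 fits (0.0505 to 0.124), and Lrat gained one in 9 fits without a single library of either genotype (0.0217 to 0.0481). The knockout rhythm of Hgf was lost without the first library at ZT 1 (0.108) or the first or the third at ZT 10 (0.052 and 0.0557), and that of Des without the second or the third at ZT 1 (0.0588 and 0.0543). The control rhythm of Des was lost without the first or second library at ZT 13 (0.0737 and 0.0584). Without the second knockout library at ZT 10 Dcn gained a knockout rhythm (0.0179), and without the first at ZT 22 Spp1 and Epcam gained one (0.00253 and 0.0398). Spp1 gained a control rhythm without either of these 2 libraries (0.0219 and 0.0274).

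Under reverse-phase feeding 2 of 10 members were called rhythmic in knockout livers, Lrat and Pdgfrb, where 37.9% of genes were, and 7 of 10 in control livers, where 41.8% were. A difference of rhythm between genotypes was again called for 0 of 10 by edgeR, against 1.5% of all genes, with 2 members, Sox9 and Des, at an unadjusted p under 0.05 (adjusted p = 0.118 and 0.335). The larger number in control livers is thus not shown to be a difference between genotypes. Lrat had the widest called range in knockout livers, 1.94-fold with a peak at ZT 8.79 ± 0.80, and 2.43-fold with a peak at ZT 8.68 ± 0.60 in control livers (edgeR adjusted p = 0.00079 and 9.38e-06). Its group means were 24 ± 8.51 normalised CPM at ZT 7 and 11.5 ± 3.97 at ZT 22 in knockout livers, and 21.8 ± 2.31 at ZT 7 and 8.3 ± 1.92 at ZT 22 in control livers (SD, n = 3 each). Krt19, the only cholangiocyte member besides Sox9 with a called rhythm in liver, had a 1.66-fold range in knockout livers, not called, and a 2.75-fold range in control livers with a peak at ZT 10.8 ± 1.1 (edgeR adjusted p = 0.282 and 0.0152).

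The reverse-phase control peaks were spread around the day. Hgf peaked at ZT 1.69 ± 1.1, Reln at ZT 5.93 ± 1.2, Dcn at ZT 12.6 ± 1.1, Sox9 at ZT 13.2 ± 0.99 and Des at ZT 14.4 ± 1.1. Reln lost its call without the first or second control library at ZT 16 or the third at ZT 19 (edgeR adjusted p = 0.0529, 0.0638 and 0.0575). Hgf lost it without the second at ZT 1 or ZT 4 (0.05 and 0.055), and Des without the third at ZT 16 (0.0528). In control livers the rhythm itself differed between schedules for 6 of 10 members in the joint fit, where 53.5% of all genes did, and in knockout livers for 1 of 10, Lrat, where 49.5% did. The control count was thus near the share of all genes, and the knockout count below it. The 6 were Sox9, Dcn, Lrat, Des, Spp1 and Reln (edgeR adjusted p = 1.61e-07, 4.73e-07, 2.08e-06, 0.000158, 0.0218 and 0.0252), and Lrat in knockout livers had an adjusted p of 0.000272. Reln lost this call without replicate number 1 or 3 (0.279 and 0.196) or with no filter (0.0644), and Spp1 without number 1 or 2 (0.052 and 0.565). The schedules were deposited as separate tables, so other differences between them cannot be told apart from feeding.

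**Figure D4:**
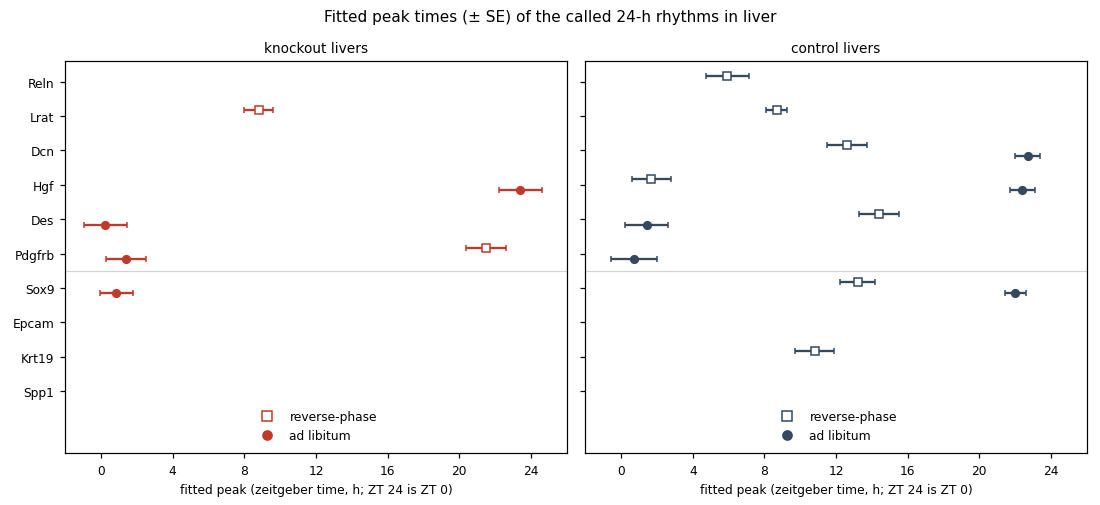
Fitted peak time (x axis, zeitgeber time in hours, with SE) of each member whose 24-h rhythm was called, in knockout livers on the left and control livers on the right. Open squares are reverse-phase and filled circles ad libitum feeding. In control livers Dcn and Sox9 stand at ZT 12.6 and ZT 13.2 under reverse-phase feeding and at ZT 22.7 and ZT 22 ad libitum.

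Stellate members were also measured in the isolated cells, although neither preparation is labelled as stellate. Per kb, Dcn averaged 1970 signal units in endothelial libraries, above 99.8% of genes with a value, Hgf 399, Reln 344 and Lrat 322, each above at least 97.7%. Pdgfrb at 43.3 and Des at 23.9 signal units per kb were above 74% and 61.9%. Per kb in Kupffer libraries Dcn averaged 272, above 95.2% of genes, and Hgf 118, above 87.1%. Lrat at 56.2 and Reln at 44.5 were above 75.1% and 70.9%, and Des at 7.5 and Pdgfrb at 5.81 above 45.2% and 42.9%, below the median gene. The 6 stellate members summed to 7880 to 16400 signal units in endothelial knockout libraries (median 9580), against 6820 to 14300 in control libraries (median 11400). In Kupffer libraries the sum was 1040 to 3180 in knockouts (median 1600), against 757 to 2530 in controls (median 1670). The ranges overlapped in both, and Acta2 was low, at 2.31 and 3.21 signal units per kb in endothelial and Kupffer libraries.

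Of 10 members 7 could be tested in each isolated cell type, and 0 were called by genotype with limma in endothelial cells, where 0.0319% of 12523 genes were, or in Kupffer cells, where 0.0244% of 12270 were. At an unadjusted p under 0.05 there was 1 in endothelial cells, Spp1, and 0 in Kupffer cells. Spp1 had 38.4 to 390 signal units in endothelial knockout libraries (median 102), against 28.1 to 155 in control libraries (median 64.5), and differed by 0.77 ± 0.29 on the log2(value + 1) scale (limma adjusted p = 0.76). The knockout libraries stood clear of the controls only at ZT 4, with 309, 271 and 184 against 63.9, 102 and 129. The stellate members differed by -0.10 to 0.15 in endothelial cells and by -0.06 to 0.13 in Kupffer cells, with SE of at most 0.18 and 0.31. Hgf in Kupffer cells was the tightest, at -0.02 ± 0.06, with 237 to 425 signal units in knockout libraries (median 327), against 224 to 422 in control libraries (median 346).

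Sox9 was near 0 in the isolated cells and was left out of the test by the filter on low values. In Kupffer libraries it had 1.2 to 5.76 signal units in knockouts (median 2.98), above 0 in all 12, against 0 to 2.74 in controls (median 0), of which 7 of 12 were listed at 0. The genotypes were separate at ZT 10, with 4.18, 1.2 and 2.46 in knockouts and 0, 0 and 0 in controls, and at ZT 16. With no filter on low values the difference was 1.49 ± 0.25 on the log2(value + 1) scale (limma adjusted p = 0.0333), 1 of 4 genes called among 19882. In endothelial libraries it had 1.27 to 5.54 signal units in knockouts (median 3.54), against 0 to 4.09 in controls (median 1.46), a difference with no filter of 0.93 ± 0.30 (limma adjusted p = 0.673). Alb took 0.0738% to 0.943% of the signal in Kupffer knockout libraries and 0.0958% to 1.06% in control libraries, and its part in the Sox9 values was not tested. Epcam and Krt19 were listed at 0 in 14 and 18 of the 24 Kupffer libraries.

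**Figure D5:**
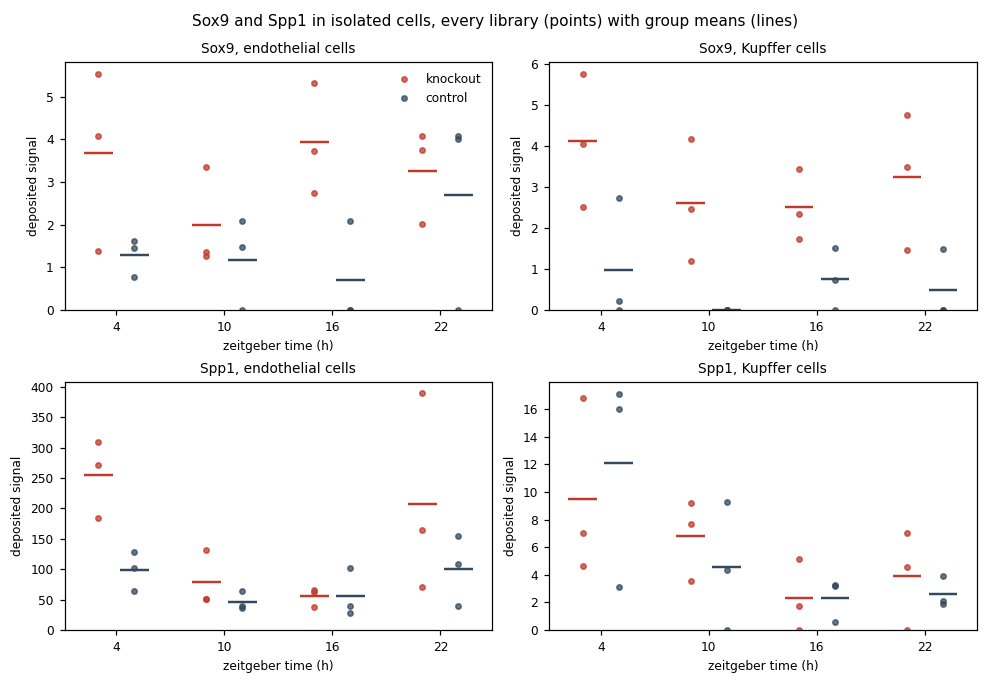
Sox9 and Spp1 in endothelial cells (left) and Kupffer cells (right) by zeitgeber time (x axis, hours), in deposited signal units (y axis). Points are libraries, with knockout in red to the left of control in dark blue, and lines are group means of 3. Sox9 stays under 6 units in both, and Spp1 in endothelial cells has means of 255 in knockout and 98.3 in control libraries at ZT 4.

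Each rhythm called for a member in isolated cells was lost in at least 1 fit that left out libraries. In endothelial cells 2 of 7 were called in knockouts, Pdgfrb and Spp1, where 13.2% of genes were, and 0 in controls by limma, where 6.13% were and 1 member had an unadjusted p under 0.05. Pdgfrb had 257, 426 and 321 signal units at ZT 22 and 146, 147 and 85.4 at ZT 10 in endothelial knockouts (limma adjusted p = 0.0332), and lost its call without the 2 knockout libraries that stand apart at ZT 22 (0.123), or without any 1 at ZT 10, the second at ZT 16 or the second at ZT 22 (0.0542 to 0.123). Control Pdgfrb gained a call without the third library at ZT 16 (0.0438). Spp1 had a 5.68-fold range in knockouts with its peak at ZT 2.06 ± 0.89, and a 2.52-fold range in controls, not called (limma adjusted p = 0.025 and 0.275). Without the first knockout library at ZT 16 or at ZT 4 its call was lost (0.0742 and 0.0552). In Kupffer cells Hgf was the 1 member called in knockouts, where 1.81% of genes were, and the 1 called in controls, where 1.96% were (limma adjusted p = 0.0395 and 0.0235), and both calls were lost without the libraries that stand apart (0.179 and 0.195). Leaving out a single library lost the knockout call in 11 fits (0.0502 to 0.144) and the control call in 4 (0.0525 to 0.119). The rhythm differed between genotypes for 0 members in either cell type by limma, 0 at an unadjusted p under 0.05, against 2.04% of genes in endothelial cells and 0% in Kupffer cells.

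By level per kb in ad libitum liver, Dcn at 67 and Spp1 at 32.3 normalised CPM per kb stood above the other members. Reln at 4.16, Lrat at 3.26, Sox9 at 2.45, Pdgfrb at 1.79, Hgf at 1.46 and Des at 1.04 normalised CPM per kb followed, and Krt19 at 0.758 and Epcam at 0.627 were lowest. Over the 48 ad libitum libraries, the 15 pairs of stellate genes had a median Pearson r of 0.58 in log2 CPM, and 0.36 after group means were removed. Under reverse-phase feeding these medians were 0.15 and 0.14. Reln and Dcn were the closest pair within groups ad libitum, at 0.89, and at 0.33 under reverse-phase feeding. Epcam, Krt19 and Spp1 had median r of 0.55 and 0.66 within groups in the 2 tables. Sox9 with the stellate genes had medians of 0.55 and 0.40 over all libraries and of 0.05 and -0.17 within groups. The libraries of a table share genotype, time and scaling, so these r are descriptions.

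The genes most like each member across both liver tables, by mean r over the 48 libraries of each among 12487 genes, were as follows. Sox9 was closest to Loxl4 at 0.89, Slc13a2os at 0.86 and Slc13a2 at 0.85. Slc13a2os is named as the antisense partner of Slc13a2, and reads of the 2 may not be told apart. Dcn was closest to Ecm1 at 0.85, Bgn at 0.85 and Prelp at 0.82, and Reln to Col14a1 at 0.77, Lamb1 at 0.77 and Bmp5 at 0.75. Pdgfrb was closest to Col5a1 and Col14a1 at 0.74 each and Pxdn at 0.73. Lrat was closest to Cyp26b1, a retinoic acid hydroxylase gene, at 0.70, Ntn1 at 0.68 and 4931406C07Rik at 0.67. Hgf was closest to Ubr3 at 0.74, Pds5a at 0.73 and Csnk1a1 at 0.73, and Des to B3gat3 at 0.63, Lgals9 at 0.61 and Ethe1 at 0.59. Epcam was closest to Spp1 at 0.75, Cd24a at 0.65 and Scara3 at 0.65, and Spp1 to Cd24a at 0.78, Epcam at 0.75 and Mfge8 at 0.69. Krt19 was closest to Tagln2 at 0.64, Cav1 at 0.60 and Bcam at 0.56.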

How the data were processed

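RNA of 144 libraries was read from 4 deposited tables. Per the submitters' processing notes the tools were STAR and HOMER with the mm9 build, and no version is stated. For liver the authors deposited an expected count per transcript, in multiples of 0.5 (29.5% of values not whole ad libitum, 31.9% under reverse-phase feeding), which were rounded to whole numbers. For endothelial and Kupffer cells the deposited values are a quantile-normalised signal, read from the values: all 24 columns of a table hold the same sorted values, so depth is unknown and a shift common to most genes would be hidden. Each table has 34600 transcript rows. Per symbol, 1 row was kept for all tables, that with the largest mean of values scaled to the library total over the 4 tables together. Taken by single tables, another row would be kept for Spp1 in ad libitum liver and both isolated cell types, and for Hgf in reverse-phase liver and endothelial cells. The same holds for Pdgfrb in reverse-phase liver, and for Reln and Krt19 in Kupffer cells. The members, gene lists and tests were chosen with earlier results of these data known.

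For liver counts edgeR 4.0.16 was used (robust quasi-likelihood fit, filterByExpr, TMM). Isolated-cell signal was tested with limma 3.58.1 (trend, robust) on log2(value + 1), for genes with at least 10 in 3 libraries or more. Both fits had genotype and, per genotype, 24-h cosine and sine terms, so a genotype effect is a difference of fitted daily means. Benjamini-Hochberg adjusted p under 0.05 over all genes tested counts as called. SE values of edgeR fold changes and of peak times were derived from the F statistics and are approximate. Those of limma fold changes are the moderated SE of the fit. A joint liver fit tested genotype by feeding, and the difference of rhythm between schedules within a genotype, which was added after the peak times were seen. All members were named, with up to 3 called genes of largest change per other list and liver table and the 3 genes most alike to each member. Values of some marker genes, of the cells of a table or of other cells, were also given. A called gene of the further cholangiocyte list is not reported here. The scripts were tested on simulated data. Alternatives were DESeq2 size factors, DESeq2 1.42.0, no filter, a mean of at least 1 CPM, a pseudocount of 4, time as a factor, the longest transcript, a replicate block, and leaving out libraries. Libraries stood apart beyond 3 median absolute deviations in slope on transcript length or in spread or, in liver, above 5% Rn45s.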

Additional observations from a re-analysis of the deposited data

Results flagged for a closer look

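The 24-h rhythm of 6 of 10 members in control livers, and of 1 of 10 in knockout livers, differed between the feeding schedules by a test of the difference itself (edgeR, joint liver fit), where 53.5% of all genes in control livers and 49.5% in knockout livers did. The control count was thus near the share of all genes, and the knockout count below it. The test was added after the peak times were seen. In knockout livers it was Lrat (adjusted p = 0.000272), with fitted peaks at ZT 8.79 under reverse-phase feeding and at ZT 22.2 ad libitum. In control livers Lrat (adjusted p = 2.08e-06) peaked at ZT 8.68 under reverse-phase feeding and at ZT 21.3 ad libitum. The ad libitum rhythm of Lrat was not called in knockout or control livers (adjusted p = 0.114 and 0.0513). Control Dcn (adjusted p = 4.73e-07) peaked at ZT 12.6 and ZT 22.7 in the same order, control Sox9 (adjusted p = 1.61e-07) at ZT 13.2 and ZT 22, and control Des (adjusted p = 0.000158) at ZT 14.4 and ZT 1.43. Control Reln (adjusted p = 0.0252) had peaks at ZT 5.93 and ZT 23.6, the ad libitum one from a rhythm that was not called. Control Spp1 (adjusted p = 0.0218) had peaks at ZT 13.5 and ZT 6.29, neither from a called rhythm. The calls of Reln and Spp1 were each lost without replicate number 1, and also without number 3 for Reln and number 2 for Spp1. Whether the dependence on feeding differs between genotypes was not tested.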

How the results depend on the processing

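The 12 liver genotype calls held their direction and side of the threshold under every alternative run: Sox9 ranged from 1.15 to 1.24 ad libitum and from 1.56 to 1.65 under reverse-phase feeding. Of 4740 recomputed member values 4661 stayed on their side of the threshold, 59 uncalled values with a changed sign among them, 58 lost a call, 21 gained one, and 0 called values changed sign. Of 693 recomputed counts of called members 36 moved by over 1.5 times, and the cause was not tested except where stated. Without the filter on low values the genotype count in Kupffer cells was 1 (Sox9, which the filter removes) and the knockout rhythm count there 0. Without the libraries that stand apart the rhythm count was 1 in endothelial knockouts, 0 in Kupffer knockouts and 0 in Kupffer controls. Leaving out each library in turn gave rhythm counts of 1 to 2 in endothelial knockouts, 0 to 1 in endothelial controls, 0 to 1 in Kupffer knockouts and controls, and 3 to 6 in ad libitum controls, and 0 to 1 members with a rhythm difference between genotypes in each liver table. Leaving out each replicate number gave 1 to 2 members whose knockout rhythm differed between schedules, and lost control Reln (adjusted p = 0.279 without number 1, 0.196 without number 3) and Spp1 (0.052 without number 1, 0.565 without number 2); Reln was also lost with no filter (0.0644). Replicate numbers did not pair libraries: deviations of same-numbered pairs correlated with medians of 0 to 0.04, and the replicate block left the counts at 7 ad libitum, 5 under reverse-phase feeding and 0 in both isolated cell types, with no member's call changed. Among the other lists it moved the called higher from 10 to 9 endothelial markers ad libitum and, under reverse-phase feeding, from 10 to 11 further stellate markers and from 3 to 2 partners of the members. Low counts limit Epcam and Krt19 ad libitum, and unknown depth the isolated cells.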
